A study of Caenorhabditis elegans with 6 samples.

Results

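Genes that *C. elegans* larvae need to shed the cuticle, or to time that event, were followed in dauer larvae with and without *daf-16*, the FOXO transcription factor of insulin signaling. They were the 10 genes *mlt-8*, *mlt-9*, *mlt-10*, *mlt-11*, *lrp-1*, *nekl-2*, *nekl-3*, *mlt-3*, *myrf-1* and *blmp-1*. They were taken by gene name from a count table of 46904 genes, of which 20191 code for protein, and all 10 were found there. The control was *daf-7(e1372)*, a temperature-sensitive allele under which larvae enter dauer at the temperature used. The *daf-16(0)* larvae had the same *daf-7* allele and, on top of it, the deletion *daf-16(mgDf50)*. Each genotype was a single strain, and the sample labels and the growth protocol name the *daf-16(0)* strain differently. Each library is a pool of dauer larvae selected by hand after 52 h at 24°C, and *daf-16(0)* animals that had not become dauer larvae were left out. With 3 libraries per genotype there were 6 libraries, although the methods speak of 2 biological replicates.

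In a molt the old cuticle separates from the hypodermis, the epidermis of the worm, as a new one is made beneath it. Shedding of the old cuticle comes last. Many molting genes are transcribed in a pulse in each larval stage, under control of transcription factors such as NHR-23. The last molt before dauer produces the dauer cuticle, and an arrested dauer larva does not molt again until it recovers.

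Each gene was tested in a smaller and a larger set of libraries. The smaller set is that of the authors' own comparison, with replicates 2 and 3 of *daf-16(0)* and replicates 1 and 2 of the control (4 libraries), and the larger holds all 6. The methods describe a search for outlier samples but name none, so why the other libraries were left out is not known. Protein-coding genes received 8103772 to 17808548 counts per library. Levels are given as normalized CPM, the counts of a gene scaled to a common number of protein-coding counts per library after TMM normalization. Differences are on the log2 scale, *daf-16(0)* minus control, ± standard error. The p-values are those of the quasi-likelihood test in edgeR, and the adjusted p was corrected by Benjamini and Hochberg's procedure over every gene tested. A gene was called higher or lower at an adjusted p of at most 0.05.

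The deleted gene followed the labels, with *daf-16* between 40.3 and 63.5 CPM in the *daf-16(0)* libraries and between 198 and 400 CPM in the controls. Several libraries stood apart from the others of their genotype. Control replicate 3, which is not in the set of 4, had a summed level of the 6 yolk genes of 18356 CPM, against 124 and 322 CPM in the other controls and 13848 to 25621 CPM in *daf-16(0)*. The 4 dauer cuticle genes *cut-1*, *cut-5*, *col-2* and *col-40* summed to 20.6 CPM in *daf-16(0)* replicate 1, also outside the set of 4, at most 1799 CPM in any *daf-16(0)* library and at least 11102 CPM in the controls. Within the set of 4, control replicate 1 had 8.64% of its counts in ribosomal RNA, against at most 1.44% elsewhere, and *daf-16(0)* replicate 3 had sperm genes at 133 CPM, against 661 and 699 CPM in the other *daf-16(0)* libraries. Of 6 hypodermis markers, 5 were above 3 counts in every library and *nhr-73* was at 0 throughout. Their summed level was 298 to 379 CPM in *daf-16(0)* and 439 to 772 CPM in control, without overlap, although edgeR called 0 of the 5 lower in the 6 libraries and 1 in the 4. The sums for neurons, intestine and sperm did not overlap either. Neurons were at 151 to 177 CPM in *daf-16(0)* and 277 to 386 CPM in control, intestine at 1920 to 2754 and 989 to 1486 CPM, and sperm at 133 to 699 and 5.24 to 25.5 CPM. Those of body muscle (4551 to 12283 and 7476 to 25353 CPM), pharynx muscle (196 to 681 and 289 to 637 CPM), germline (300 to 820 and 77.9 to 525 CPM) and yolk overlapped in the 6 libraries. In the 4 libraries, of these only pharynx muscle overlapped. There body muscle was at 6393 and 12283 CPM in *daf-16(0)* and 25353 and 17412 CPM in control, and germline at 609 and 300 against 207 and 77.9 CPM. Yolk was at 13848 and 25621 against 322 and 124 CPM. edgeR called 6 of the 6 yolk genes higher in the 4 libraries, where 5.37% of all genes tested were, and 0 in the 6. Whole larvae were sequenced, so fewer cells of a type and less RNA per cell cannot be told apart, and the part of these markers and libraries in the values that follow was not tested.

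The main difference among the 10 genes was in *mlt-10*, which was higher in *daf-16(0)* dauer larvae by 13.6-fold in the 4 libraries and 19.4-fold in the 6. It was the 1 gene of the 10 that edgeR called higher in either set, and 0 were called lower. Across all 13536 genes tested in the 4 libraries, 5.37% were called higher and 9.59% lower, 15% in either direction. Of 13633 genes tested in the 6 libraries the shares were 5.08%, 7.39% and 12.5%. At an unadjusted p under 0.05, edgeR placed 3 of the 10 higher and 1 lower in the 4 libraries, where 16.9% and 19% of all genes were, and 4 higher and 0 lower in the 6, where 13.9% and 16.2% were. DESeq2 called 1 higher and 1 lower in the 4 libraries, beside 10.9% and 13.9% of the 14941 genes to which it gave an adjusted p. In the 6 it called 4 higher and 0 lower, beside 10.9% and 12.4% of 15110 genes. The median difference of the 10 genes was 0.17 in the 4 libraries and 0.02 in the 6, beside 0.11 and 0.09 over all genes tested. All 10 passed the filter on low counts.

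**Figure D1:**
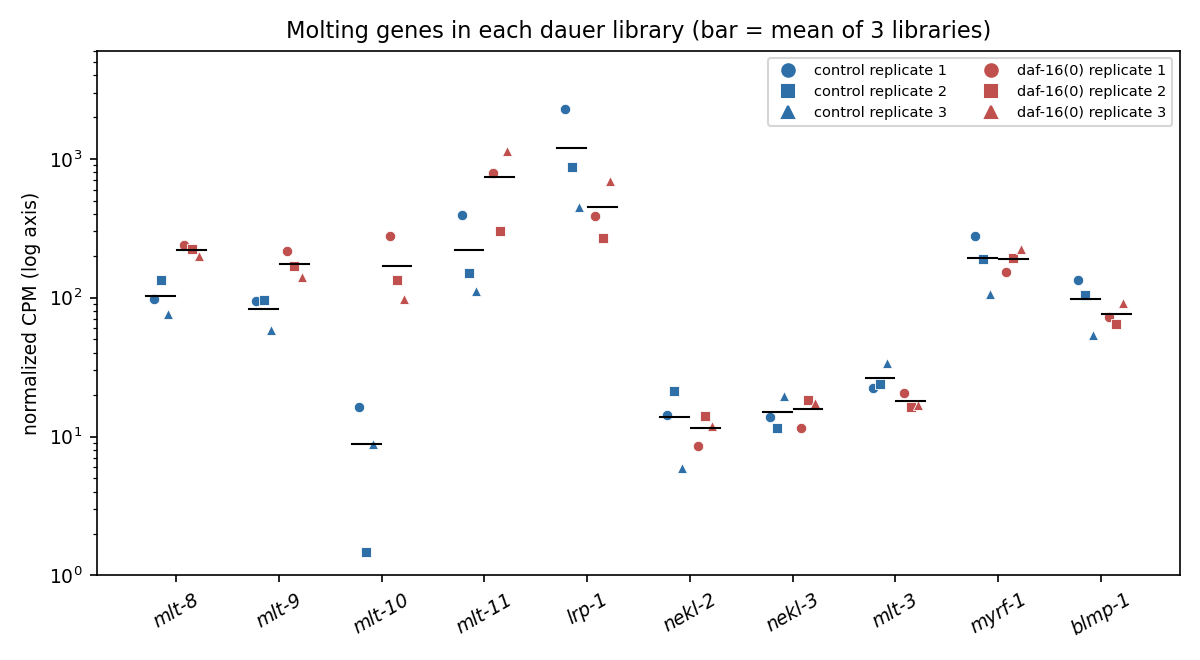
Normalized CPM (log axis) of the 10 molting genes in each of the 6 libraries, with a point per library and a bar at the mean of 3 libraries. Every *daf-16(0)* library lies above every control for *mlt-8*, *mlt-9* and *mlt-10*, and below for *mlt-3*.

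*mlt-10* encodes a secreted protein with proline-rich repeats, the founder of a nematode family that is made in the hypodermis around the molt. It lies at chromosome II, 546705 to 552031, forward strand (WBcel235, as are all positions here). Its level was 278, 135 and 98 CPM in the 3 *daf-16(0)* libraries in order of replicate number, and 16.2, 1.48 and 8.83 CPM in the 3 controls, the order kept for every gene below. The lowest *daf-16(0)* library was thus above the highest control. The control values rest on few reads, 114, 13 and 172 counts, against 1225 to 4264 counts in *daf-16(0)*. *T27A1.3*, which overlaps it by 240 bases, had at most 1 count. The mean was 170 ± 95.3 CPM in *daf-16(0)* and 8.83 ± 7.35 CPM in control (SD, n = 3). The difference was 3.77 ± 0.95 on the log2 scale in the 4 libraries (edgeR adjusted p = 0.0471) and 4.28 ± 0.83 in the 6 libraries (adjusted p = 0.0191).

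The size of the *mlt-10* difference turned on the controls, which span 10.9-fold. Without control replicate 1 the 4-library difference was 6.29, and without control replicate 2 it was 2.86, both still called by edgeR. The call was lost in the 4 libraries without *daf-16(0)* replicate 2 (3.55, adjusted p = 0.092) and without replicate 3 (4.01, adjusted p = 0.066), where 1 *daf-16(0)* library is left. In the 6 libraries it was lost without *daf-16(0)* replicate 1 (3.74, adjusted p = 0.0503) and without replicate 2 (4.46, adjusted p = 0.0659). Over all alternatives the adjusted p ran from 2.97e-05 to 0.092 in the 4 libraries and from 1.46e-07 to 0.0659 in the 6.

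*mlt-8* and *mlt-9*, both found through larvae that fail to finish the molt when the gene is knocked down, had higher levels in *daf-16(0)* in every library but did not pass edgeR's threshold. The level of *mlt-8* (chromosome II, 569236 to 572110, reverse strand) was 239, 224 and 201 CPM in *daf-16(0)* and 98.5, 133 and 76.8 CPM in control. Its difference was 0.89 ± 0.31 in the 4 libraries (edgeR adjusted p = 0.097) and 1.11 ± 0.30 in the 6 (adjusted p = 0.0505). DESeq2 called it in the 6 libraries (adjusted p = 0.0109), and so did edgeR with genes of all biotypes in the fit (adjusted p = 0.0484). None of the leave-one-out fits called *mlt-8*, and over all alternatives its adjusted p ran from 0.0691 to 0.346 in the 4 libraries and from 0.0109 to 0.155 in the 6.

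*mlt-9* (chromosome X, 15101787 to 15107967, reverse strand) had a level of 216, 169 and 141 CPM in *daf-16(0)* and 94.8, 95.8 and 58.4 CPM in control. The genotypes did not overlap. The difference was 0.72 ± 0.28 in the 4 libraries (edgeR adjusted p = 0.125) and 1.08 ± 0.32 in the 6 (adjusted p = 0.064). DESeq2 called it in the 6 libraries (adjusted p = 0.0197), and over all alternatives there the adjusted p ran from 0.0197 to 0.165.

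*mlt-11* encodes a protease inhibitor with Kunitz domains that is secreted to the cuticle, and it had the widest spread within *daf-16(0)* of the 10 genes. It lies at chromosome V, 20667209 to 20678513, forward strand. Its level was 795, 303 and 1132 CPM in *daf-16(0)* and 394, 151 and 112 CPM in control. *daf-16(0)* replicate 2 was below control replicate 1, so the genotypes overlapped. The mean was 744 ± 417 CPM in *daf-16(0)* and 219 ± 153 CPM in control (SD, n = 3). The difference of 1.42 ± 0.71 in the 4 libraries was not called (edgeR adjusted p = 0.201), nor was that of 1.76 ± 0.63 in the 6 (adjusted p = 0.105). Leaving out control replicate 1 from the 4 libraries gave 2.26 with a call (adjusted p = 0.0429), and leaving out *daf-16(0)* replicate 3 gave 0.21. Removing the filter on low counts also gave a call in the 4 libraries (adjusted p = 0.0422), as DESeq2 did in the 6 (adjusted p = 0.0168). Over all alternatives its adjusted p ran from 0.0422 to 0.842 in the 4 libraries and from 0.0168 to 0.259 in the 6.

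*lrp-1* had the lowest fitted difference of the 10 genes. It encodes a large endocytic receptor related to megalin, which sits on the apical face of the hypodermis and takes up lipoproteins and sterols that molting needs. The gene lies at chromosome I, 7614176 to 7634135, forward strand. Its level was 385, 271 and 695 CPM in *daf-16(0)* and 2288, 879 and 449 CPM in control. *daf-16(0)* replicate 3 was above control replicate 3, so the genotypes overlapped in the 6 libraries and not in the 4. The difference was −1.69 ± 0.63 in the 4 libraries (edgeR unadjusted p = 0.034, adjusted p = 0.11) and −1.42 ± 0.64 in the 6 (adjusted p = 0.181). The call in the 4 libraries was reached with DESeq2 (adjusted p = 0.0167), with no filter (adjusted p = 0.0134) and without control replicate 2 (−2.22, adjusted p = 0.019). Control replicate 1 carried much of the size, since the 4-library difference was −0.85 without it. Over all alternatives the adjusted p ran from 0.0134 to 0.407 in the 4 libraries and from 0.0537 to 0.556 in the 6.

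**Figure D2:**
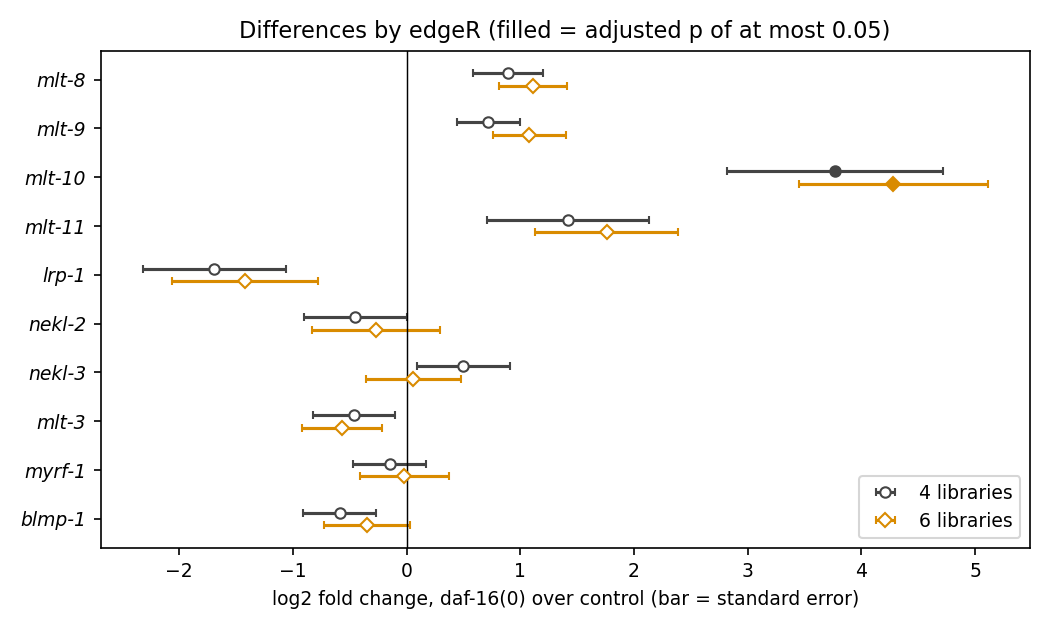
Log2 fold change of *daf-16(0)* over control with its standard error, from edgeR, for the 10 molting genes in the 4 libraries (circles) and the 6 libraries (diamonds). Filled symbols, with an adjusted p of at most 0.05, are those of *mlt-10* alone.

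The 3 genes of the NEKL kinase group were low in both genotypes, and none was called. NEKL-2 and NEKL-3 are kinases of the NIMA family that act in the hypodermis on clathrin-mediated endocytosis, and MLT-3 is an ankyrin repeat protein that partners NEKL-3. The level of *nekl-2* (chromosome I, 6663050 to 6665160, forward strand) was 8.49, 14 and 11.9 CPM in *daf-16(0)* and 14.2, 21.4 and 5.95 CPM in control. For *nekl-3* (chromosome X, 12389594 to 12391474, reverse strand) it was 11.6, 18.2 and 17.4 CPM in *daf-16(0)* and 13.9, 11.6 and 19.5 CPM in control. Both overlapped between genotypes in the 6 libraries.

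The difference of *nekl-2* was −0.45 ± 0.45 in the 4 libraries and −0.27 ± 0.56 in the 6 (edgeR adjusted p = 0.5 and 0.776). That of *nekl-3* was 0.50 ± 0.41 and 0.06 ± 0.42 (adjusted p = 0.412 and 0.933). Reads were not separated by strand, which limits *nekl-2*: 84 bases of the gene overlap *ZC581.9* on the opposite strand, a gene with up to 547 counts, where *nekl-2* had at least 100.

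*mlt-3* (chromosome IV, 12222872 to 12227112, reverse strand) was the 1 gene of the 10 below control in every library. Its level was 20.7, 16.2 and 16.9 CPM in *daf-16(0)* and 22.3, 23.7 and 33.7 CPM in control. The difference was −0.46 ± 0.36 in the 4 libraries and −0.57 ± 0.35 in the 6, and did not pass the test (edgeR adjusted p = 0.391 and 0.306). *F35G2.5*, with at most 79 counts, shares 18 bases with it on the opposite strand, and the pseudogene *Y39C12A.2*, with at most 11 counts, shares 737 bases. *mlt-3* itself had at least 147 counts.

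The transcription factors *myrf-1* and *blmp-1* were not called in either set. MYRF-1 is made as a membrane protein and releases a DNA-binding fragment that promotes progression through the larval stages and the molts. Its gene (chromosome II, 10496987 to 10502541, reverse strand) had a level of 152, 193 and 224 CPM in *daf-16(0)* and 279, 191 and 107 CPM in control. The *daf-16(0)* values all lie within the control range. The difference was −0.15 ± 0.32 in the 4 libraries and −0.02 ± 0.39 in the 6 (edgeR adjusted p = 0.758 and 0.978), and its sign changed in some alternatives.

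BLMP-1 is the zinc finger factor related to mammalian BLIMP1, and it sets the strength of the pulses of many cyclic larval genes. *blmp-1* (chromosome I, 10409302 to 10414707, forward strand) had a level of 73, 64.2 and 91.8 CPM in *daf-16(0)* and 134, 105 and 53.4 CPM in control. Here too control replicate 3 was the lowest of the controls and below every *daf-16(0)* library. The difference was −0.59 ± 0.32 in the 4 libraries and −0.35 ± 0.38 in the 6 (edgeR adjusted p = 0.226 and 0.563).

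Counting order alone, 3 of the 10 genes had every *daf-16(0)* library above every control in the 6 libraries, 1 below and 6 overlapping. Over all genes tested, 21.3% were above and 19.6% below in this sense, 40.9% in either. In the 4 libraries 4 were above, with *nekl-3* joining *mlt-8*, *mlt-9* and *mlt-10*, and 4 below, namely *mlt-3*, *nekl-2*, *lrp-1* and *blmp-1*, where 36.7% and 33.2% of all genes were, 70% in either. The highest library exceeded the lowest by 1.19-fold (*mlt-8*) to 3.73-fold (*mlt-11*) among the *daf-16(0)* libraries, with a median of 1.56. Among the controls this ratio ran from 1.51 (*mlt-3*) to 10.9 (*mlt-10*), with a median of 2.55.

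To compare the genes with each other, CPM was divided by the length of the merged exons in kb. For all of the 10 genes but *myrf-1*, the gene's start or end in the annotation used for length differs from the deposited position. These lengths, and the ranks drawn from them, are therefore approximate. On this scale *mlt-8* had the highest mean level in both genotypes, 93 CPM per kb in control and 200 CPM per kb in *daf-16(0)*, although *lrp-1* was above it in control replicate 1. *lrp-1* followed in control with 81.9 CPM per kb and had 30.6 CPM per kb in *daf-16(0)*, the sixth of the 10. *mlt-10* was the lowest of the 10 in every control, at a mean of 3.77 CPM per kb. In *daf-16(0)* its mean was 72.8 CPM per kb, close to *mlt-11* with 75.9 and *mlt-9* with 83.7, and it took rank 2, 3 and 6 in replicates 1 to 3. The order of these 3 genes differed from library to library, and whether their levels per length differ was not tested.

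The other genes kept more even levels per length. *myrf-1* had 52.7 CPM per kb in control and 51.9 CPM per kb in *daf-16(0)*, and *blmp-1* had 28.4 and 22.2 CPM per kb. *mlt-3*, *nekl-3* and *nekl-2* were at 20.5, 13.8 and 11.6 CPM per kb in control and at 13.8, 14.5 and 9.61 CPM per kb in *daf-16(0)*. *nekl-2* was the lowest of the 10 in every *daf-16(0)* library.

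**Figure D3:**
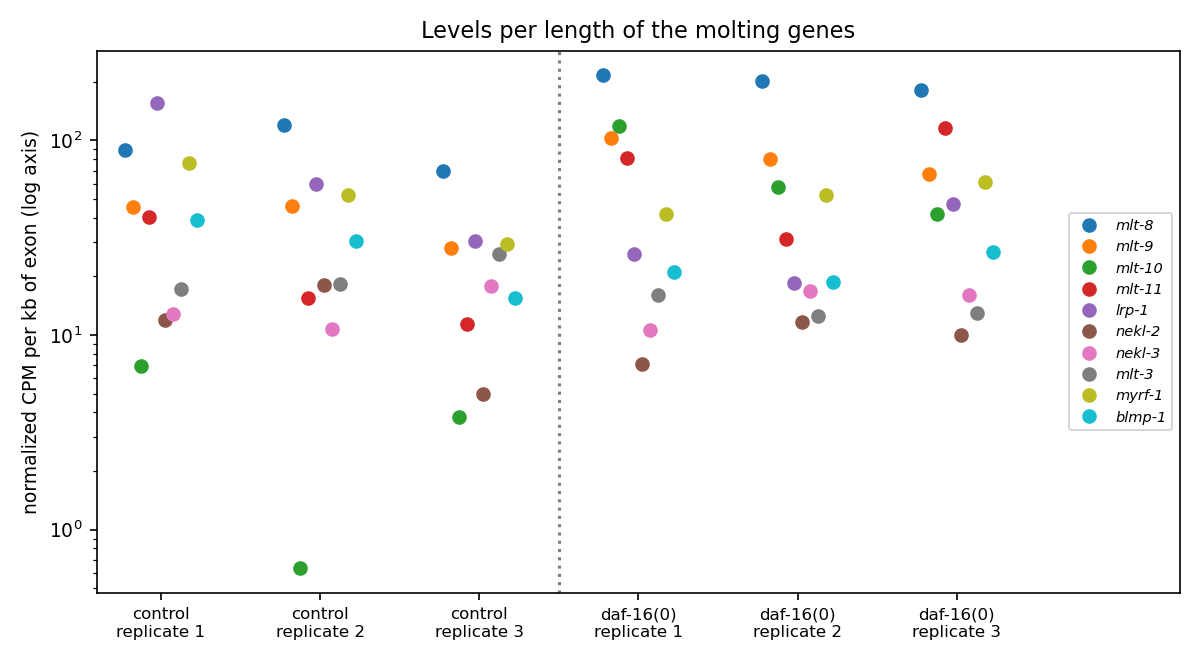
Normalized CPM per kb of merged exon (log axis) of the 10 molting genes, a point per gene in each of the 6 libraries, controls left and *daf-16(0)* right of the dotted line. *mlt-10* is the lowest point in each control and lies among the upper 6 in each *daf-16(0)* library, and *mlt-8* is at the top in all but control replicate 1.

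Over the 6 libraries, which differ in genotype and depth together with everything else in whole-larva RNA, some of the 10 genes had alike profiles of log2 CPM. The highest Pearson's r was 0.96, between *mlt-8* and *mlt-9*, and the lowest was −0.85, between *mlt-3* and *mlt-8*, all 3 being genes in which the genotypes are separated. It was 0.89 between *lrp-1* and *blmp-1* and 0.86 between *myrf-1* and *blmp-1*, and control replicate 1 was the highest and control replicate 3 the lowest of the controls for these last 3 genes. The genes most like *blmp-1* among the 13633 tested were *vab-19* (r = 0.9988), *dapk-1* (r = 0.9942) and *ced-1* (r = 0.9931). The closest to *mlt-10* were *cuti-1* (r = 0.997), *clu-1* (r = 0.9969) and *ZK228.3* (r = 0.9964), each with every *daf-16(0)* library above every control. These are descriptions of 6 libraries, and the genotypes are separated in *mlt-10* and in the 3 genes closest to it.

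*mlt-10* has 13 named relatives, *mltn-1* to *mltn-13*, and the levels within this family were not alike. In the 4 libraries 9 of them could be tested, of which 2 were called higher and 0 lower by edgeR, with a median difference of 1.24. In the 6 libraries the test covered 8, again with 2 higher and 0 lower, and a median of 1.81. Over all genes tested, 5.37% were called higher and 9.59% lower in the 4 libraries, and 5.08% and 7.39% in the 6, with medians of 0.11 and 0.09. At an unadjusted p under 0.05 edgeR placed 3 relatives higher and 1 lower in the 4 libraries, beside 16.9% and 19% of all genes. In the 6 it placed 4 higher and 0 lower, beside 13.9% and 16.2%. DESeq2, which fitted 12 relatives in each set, called 3 higher and 0 lower in the 4 libraries. This stands beside 10.9% and 13.9% of the genes to which it gave an adjusted p. In the 6 it called 4 higher and 0 lower, beside 10.9% and 12.4%. *mltn-3*, with 2, 0 and 0 counts in control, passed the filter on low counts through *daf-16(0)* alone. In the 6 libraries *mltn-1* (16, 9 and 0 counts in control), *mltn-9* (22, 14 and 4) and *mltn-13* (14, 5 and 0) would not have passed on their controls either. In the 4 this held for *mltn-1*, *mltn-8* and *mltn-13*, while *mltn-7* and *mltn-10* passed through control in both sets. The counts, medians and calls of the tested relatives are therefore partly set by the filter and are given as a description. How reads that match several relatives were shared out was not tested.

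The relatives called were *mltn-1* and *mltn-9*, both on chromosome II. *mltn-1* (13139465 to 13145225) had 73.8, 45.9 and 80.3 CPM in *daf-16(0)* and 2.27, 1.03 and 0 CPM in control, so it was close to absent from the controls. Its difference was 5.30 ± 0.56 in the 4 libraries (edgeR adjusted p = 0.00616) and 6.08 ± 1.11 in the 6 (adjusted p = 0.0164), the latter depending in size on the control without counts. *mltn-9* (14616068 to 14622612) had 55.9, 42.8 and 36 CPM in *daf-16(0)* and 3.12, 1.60 and 0.205 CPM in control. Its difference was 4.09 ± 0.49 in the 4 libraries (edgeR adjusted p = 0.00712) and 4.85 ± 0.85 in the 6 (adjusted p = 0.0147). Over the leave-one-out fits of the 4 libraries the difference ran from 4.81 to 5.94 for *mltn-1* and from 3.67 to 4.62 for *mltn-9*. *mltn-1* entered the test through *daf-16(0)* alone in both sets, and *mltn-9* did so in the 6. These calls and adjusted p-values are thus a description and no independent support for a difference. In the 6 libraries *mltn-1* lost its call without *daf-16(0)* replicate 2, *daf-16(0)* replicate 3 or control replicate 2 (adjusted p = 0.0623, 0.0552 and 0.0541), and *mltn-9* without *daf-16(0)* replicate 2 (adjusted p = 0.0623).

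Over all genes tested in the 6 libraries, 21.3% had every *daf-16(0)* library above every control and 19.6% below, 40.9% in either. Of the 13 relatives, 6 were above in this sense, 2 below and 5 overlapped, and 4 had at most 10 counts in every library. Besides *mltn-1* and *mltn-9*, those above were *mltn-3*, *mltn-5*, *mltn-12* and *mltn-13*, named after their values were seen, and edgeR called none of these 4 in either set. *mltn-12* had 184, 144 and 57 counts in *daf-16(0)* and 25, 21 and 55 counts in control, and *mltn-3* had 29, 52 and 32 against 2, 0 and 0 counts. Over all alternatives in the 6 libraries the adjusted p ran from 0.00883 to 0.294 for *mltn-3* and from 0.039 to 0.361 for *mltn-12*.

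The relatives below control in every library were *mltn-7* and *mltn-10*. *mltn-7*, chosen here after its values were seen, had 0, 36 and 11 counts in *daf-16(0)* and 98, 83 and 182 counts in control, a difference of −2.27 ± 0.89 in the 4 libraries that was not called (edgeR adjusted p = 0.124) and ran from −3.73 without *daf-16(0)* replicate 2 to −1.51 without *daf-16(0)* replicate 3. *mltn-10*, the neighbor of *mltn-9* on chromosome II and likewise chosen after its values were seen, had 0, 1 and 17 counts in *daf-16(0)* and 10, 29 and 28 in control. Its 4-library difference of −1.69 ± 1.5 was not called (adjusted p = 0.444) and ran from −4.23 without *daf-16(0)* replicate 3 to −0.83 without *daf-16(0)* replicate 2.

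**Figure D4:**
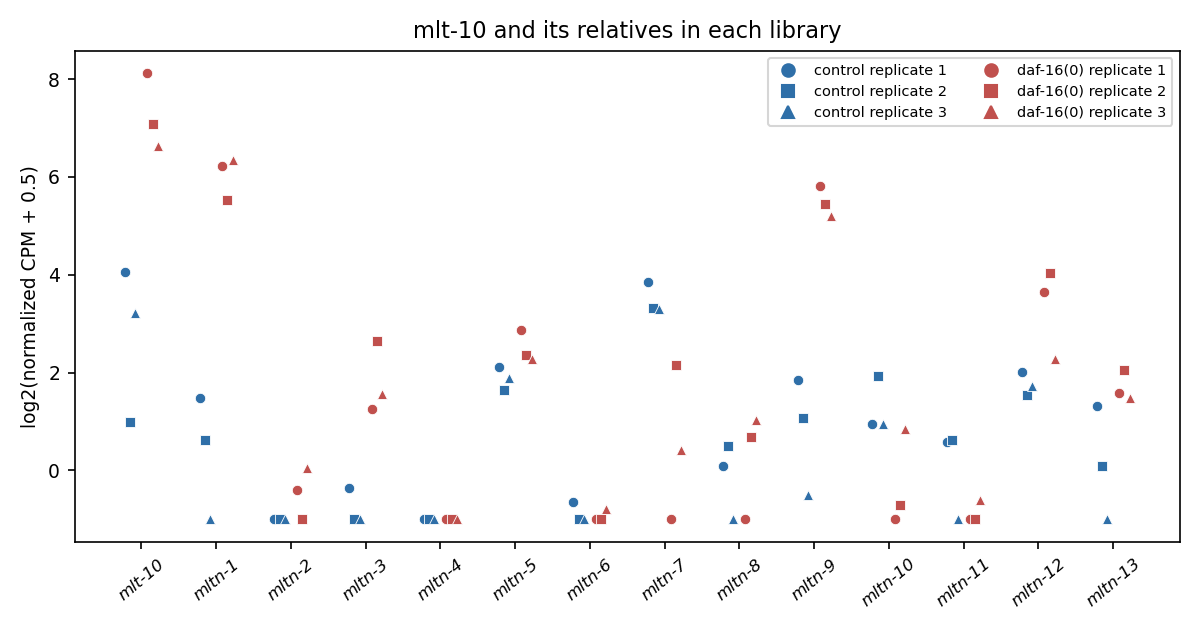
Log2 of normalized CPM plus 0.5 for *mlt-10* and its 13 relatives in each of the 6 libraries. *mlt-10*, *mltn-1*, *mltn-3*, *mltn-5*, *mltn-9*, *mltn-12* and *mltn-13* stand above every control in every *daf-16(0)* library, and *mltn-7* and *mltn-10* stand below.

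Of 8 other genes in the transcription and timing of the molt, edgeR called 0 higher and 2 lower in the 4 libraries and 1 of each in the 6. The median log2 fold change was −0.30 and −0.13. Over all genes tested, 5.37% were called higher and 9.59% lower in the 4 libraries, and 5.08% and 7.39% in the 6, with medians of 0.11 and 0.09. *bed-3*, a BED zinc finger factor, was lower in both sets, with 35.2, 29.7 and 21.9 CPM in *daf-16(0)* against 134, 147 and 50.2 CPM in control. Its difference was −2.43 ± 0.32 in the 4 libraries (edgeR adjusted p = 0.00893) and −1.93 ± 0.45 in the 6 (adjusted p = 0.0319). The 6-library call for *bed-3* was kept in 1 of 6 leave-one-out fits, the one without control replicate 3. Its 4-library difference ran from −2.64 to −2.20 over the leave-one-out fits.

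*grh-1*, the Grainyhead factor of the epidermis, had 22.5, 37.6 and 35.3 CPM in *daf-16(0)* and 149, 144 and 29.8 CPM in control. It was called lower in the 4 libraries (−1.99 ± 0.28, edgeR adjusted p = 0.0106) and not in the 6 (−1.76 ± 0.58, adjusted p = 0.0851), where control replicate 3 fell among the *daf-16(0)* values. Without *daf-16(0)* replicate 2 or replicate 3 the 4-library call was lost (adjusted p = 0.0615 and 0.0589).

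*nhr-23*, the nuclear receptor that drives the molting cycle, had higher values in *daf-16(0)*. Its level was 46.9, 44.1 and 52.3 CPM in *daf-16(0)* and 26.8, 13.9 and 13.0 CPM in control, without overlap. It was called higher in the 6 libraries (1.42 ± 0.37, edgeR adjusted p = 0.0446) and not in the 4 (1.27 ± 0.40, adjusted p = 0.0797). The 6-library call was kept in 2 of 6 leave-one-out fits, those without control replicate 1 and without control replicate 3. *lin-42*, the PERIOD homolog that times the molts, overlapped between genotypes, and its difference was −0.23 ± 0.43 in the 4 libraries and 0.14 ± 0.48 in the 6 (adjusted p = 0.732 and 0.869).

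Among 12 other genes, NEKL partners and genes of membrane traffic, mostly endocytosis, edgeR called 0 higher and 2 lower in the 4 libraries and none in the 6. In the 6, an unadjusted p under 0.05 was reached by 1 higher and 2 lower, and DESeq2 called 0 higher and 1 lower. The higher one was *sec-23* (0.91 ± 0.35), a gene of secretion and not of endocytosis, named after its values were seen. The median log2 fold change was −0.43 and −0.21. Over all genes tested, edgeR called 5.37% higher and 9.59% lower in the 4 libraries, and 5.08% and 7.39% in the 6, with medians of 0.11 and 0.09. At the unadjusted p, 13.9% of all genes were higher and 16.2% lower in the 6, and DESeq2 called 10.9% and 12.4% there. *dab-1* encodes the adaptor that links LRP-1 to endocytosis, and had 193, 169 and 196 CPM in *daf-16(0)* against 452, 400 and 193 CPM in control. *hgrs-1*, a sorting protein of endosomes, had 61.7, 66.4 and 53.7 CPM against 168, 129 and 85.1 CPM.

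Both were called lower in the 4 libraries, *dab-1* by −1.20 ± 0.30 (edgeR adjusted p = 0.0446) and *hgrs-1* by −1.29 ± 0.30 (adjusted p = 0.0391). In the 6 libraries the differences were −0.90 ± 0.37 and −1.07 ± 0.32 and were not called (adjusted p = 0.143 and 0.0655). In the 4 libraries *dab-1* lost its call without either *daf-16(0)* library (adjusted p = 0.269 and 0.154), and *hgrs-1* was called in 1 of 4 leave-one-out fits, the one without control replicate 2.

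*mlt-2* and *mlt-4*, the ankyrin partners of NEKL-2, had at most 124 counts per library, with 0 for *mlt-4* in control replicate 3, and differences of 0.42 ± 0.53 and −0.34 ± 0.73 in the 4 libraries (edgeR adjusted p = 0.597 and 0.766). In the 6 they were 0.55 ± 0.64 and 0.39 ± 1.42 (adjusted p = 0.597 and 0.879), so the direction of *mlt-4* turned.

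The apical matrix and crosslinking list moved in both directions. Of its 9 genes, edgeR called 3 higher and 2 lower in each set, with a median difference of 1.13 in the 4 libraries and 1.35 in the 6. Over all genes tested, 5.37% were called higher and 9.59% lower in the 4 libraries, and 5.08% and 7.39% in the 6, with medians of 0.11 and 0.09. *noah-1*, which encodes a matrix protein of the larval epidermis, had 610, 603 and 660 CPM in *daf-16(0)* and 182, 143 and 124 CPM in control, a difference of 1.98 ± 0.32 in the 4 libraries (edgeR adjusted p = 0.0138). *sym-1*, a secreted leucine-rich repeat protein, had 344, 263 and 328 CPM against 86.4, 34.1 and 44.1 CPM, a difference of 2.32 ± 0.48 (adjusted p = 0.0288). *noah-2*, the fifth gene called and named after its values were seen, was higher by 1.56 ± 0.30 (adjusted p = 0.0238). In the 6 libraries the differences of *noah-1*, *sym-1* and *noah-2* were 2.06 ± 0.30, 2.51 ± 0.41 and 1.62 ± 0.28 (edgeR adjusted p = 0.00826, 0.012 and 0.0145). These calls were kept in 6, 6 and 4 of 6 leave-one-out fits. With a replicate block *noah-1* and *noah-2* lost theirs (edgeR adjusted p = 0.0564 and 0.0779). In the 4 libraries all 3 lost their call without *daf-16(0)* replicate 2 (adjusted p = 0.0513, 0.0536 and 0.0861) or replicate 3 (adjusted p = 0.0524, 0.0688 and 0.0916).

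The lower genes of this list act together in crosslinking the cuticle. *bli-3* encodes a dual oxidase and had 51.6, 71.0 and 87.7 CPM in *daf-16(0)* and 353, 358 and 93.8 CPM in control. *tsp-15* encodes a tetraspanin that BLI-3 needs, and had 7.70, 8.90 and 12.7 CPM against 57.5, 57.1 and 32.2 CPM. In the 4 libraries the differences were −2.15 ± 0.31 for *bli-3* (edgeR adjusted p = 0.0107) and −2.39 ± 0.35 for *tsp-15* (adjusted p = 0.0114). With all 6 they were −1.94 ± 0.52 (adjusted p = 0.049) and −2.32 ± 0.39 (adjusted p = 0.0124), and the *bli-3* call was kept in 1 of 6 leave-one-out fits, the one without control replicate 3. Without *daf-16(0)* replicate 2 the 4-library calls were lost (adjusted p = 0.0771 and 0.0563).

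Among 5 proteases, inhibitors and other genes for release of the old cuticle, edgeR called none in either set, with a median difference of −0.05 in the 4 libraries and 0.23 in the 6. An unadjusted p under 0.05 was reached by 1 higher gene in the 4 libraries and 0 in the 6, and DESeq2 called 0 in both. Over all genes tested, edgeR called 15% in either direction in the 4 libraries and 12.5% in the 6, with medians of 0.11 and 0.09. At the unadjusted p, 16.9% of all genes were higher in the 4 libraries and 13.9% in the 6.

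**Figure D5:**
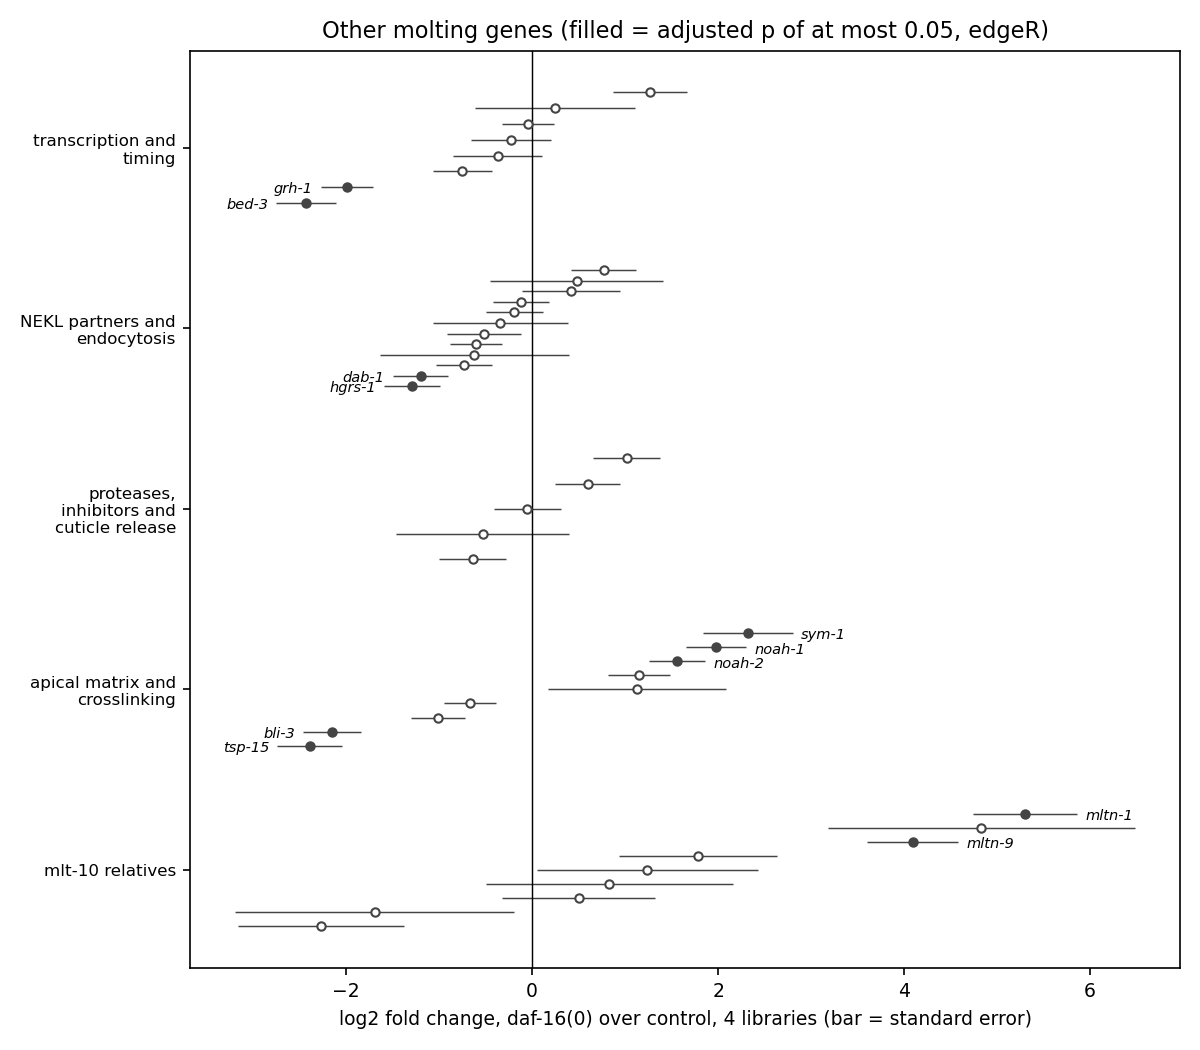
Log2 fold change of *daf-16(0)* over control with its standard error, from edgeR in the 4 libraries, for every tested gene of the 5 lists of other molting genes. Filled and named points, 11 in all, have an adjusted p of at most 0.05, with 5 to the right of 0 and 6 to the left.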

How the data were processed

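The data are mRNA-seq of whole, hand-picked dauer larvae from an unstranded kit (TruSeq RNA v2), sequenced as pairs of 100 bp. Per the submitters' processing notes and the methods, adapters were clipped with Trimmomatic 0.39, reads were mapped to WBcel235 with STAR 2.4.2a, and the authors deposited expected counts per gene from RSEM 2.1, not normalized. The authors also deposited a normalized signal table, in which each library's rounded protein-coding counts are divided by its DESeq2 1.30.0 size factor, and their own comparison with log2 fold changes and p-values, which was not used.

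The expected counts of protein-coding genes were rounded to whole numbers and tested with edgeR 4.0.16 in R 4.3.3 (TMM, filterByExpr, quasi-likelihood fit, Benjamini-Hochberg adjustment over all genes tested). No covariate was fitted. The main fits used the 4 libraries that the sample descriptions tie to the authors' comparison, and all 6 libraries. DESeq2 1.42.0, limma 3.58.1 on log2 of the deposited signal with a pseudocount of 1, RLE factors, no filter, a mean of at least 10 counts, all biotypes, an added log2 threshold of 1, a replicate block and leaving out each library were the alternatives. Where 1 library of a genotype is left, it is assumed to vary like those of the other genotype. The replicates are separate samples in the labels, and if they are not separate cultures the p-values measure technical spread alone.

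Exon lengths came from the Ensembl annotation of WBcel235, and positions from the deposited tables. In a simulated count table in which 200 genes differed by 3 on the log2 scale, edgeR recovered 70% with 4 libraries (13653 genes tested) and 44.5% with 6 (13990 genes tested), with 0 wrong signs and 5 and 2 false calls. DESeq2 recovered 83% (17119 genes tested) and 72.5% (17473 genes tested), with 23 and 34 false calls. Over as many genes limma recovered 65% and 30.5%, with 7 and 0 false calls. The simulation gave every gene the same dispersion and took the changed genes from those well above the floor. It had no shifts of single libraries like those described above, so these rates need not hold for the real libraries. Tables and figures were made in Python 3.11.15 with pandas 2.3.3 and matplotlib 3.10.9.

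The 10 genes and the lists of other molting genes were chosen with earlier results of these data known. Named from the lists were the genes called in the 4 libraries, at most 4 per list by absolute log2 fold change, with *nhr-23*, *lin-42*, *mlt-2* and *mlt-4* in any case. For *mlt-10* and *blmp-1* the 3 genes with the highest Pearson's r of log2(CPM + 0.5) over the 6 libraries were named, and genes overlapping a member were given as limits. A motif search in promoters was planned and is not analysed here, and no sequences are shown.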

Additional observations from a re-analysis of the deposited data

How the results depend on the processing

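Called higher and lower among the 10 genes in the 4 libraries were 1 and 0, and these became 2 and 1 with no filter on low counts and 1 and 1 with DESeq2. Among the 6 libraries the 1 gene called higher became 4 with DESeq2 and 2 with all biotypes. Leaving out each library gave 0 to 2 higher and 0 to 1 lower in the 4 libraries, and 0 to 1 higher and 0 lower in the 6. Over all genes, the 727 higher and 1298 lower of the 4 libraries became 1626 and 2072 with DESeq2 and 1626 and 1974 with no filter, and the 693 and 1008 of the 6 libraries became 1644 and 1880 with DESeq2. Leaving out each library gave 271 to 1914 higher and 436 to 1639 lower in the 4 libraries, and 125 to 1267 higher and 170 to 1675 lower in the 6. Over the 5 lists of other molting genes, 5 were called higher and 6 lower in the 4 libraries and 6 and 3 in the 6. DESeq2 made this 8 higher in the 4 and 5 lower in the 6. Leaving out each library gave 2 to 10 higher and 1 to 6 lower in the 4 libraries, and 2 to 7 higher and 0 to 7 lower in the 6. The cause of these shifts was not tested.

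Of the 10 genes, 3 with differences near 0 changed sign. Genes of the lists did so too, among them *lin-42*, which ran from −0.62 to 0.30 over the leave-one-out fits of the 4 libraries. With each library left out in turn, *myrf-1* ran from −0.40 to 0.13 in the 4 libraries, the latter without control replicate 1. In the 6 it ran from −0.29 to 0.36, the latter again without control replicate 1, and was 0.14 without *daf-16(0)* replicate 1, and rounded to 0 with all biotypes and with no filter. In the 6, *nekl-2* ran from −0.63 to 0.18 and *nekl-3* from −0.10 to 0.32, the sign changing in both without control replicate 2, and *nekl-3* was at −0.03 and −0.02 without *daf-16(0)* replicates 2 and 3.

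Same-numbered libraries did not deviate together from their genotype means over genes (r = −0.0528, −0.0113 and −0.231). Pairs with unlike numbers ran from −0.187 to 0.218. Each deviation depends on the other libraries of its genotype, so these values cannot tell whether same-numbered libraries shared a culture or a day. With a replicate block the 6 libraries gave 162 genes higher and 222 lower, 1 of the 10 genes higher, and 2 higher and 0 lower over the lists. *mlt-10* was still called (4.57, edgeR adjusted p = 0.0354), and *myrf-1* was 0.07.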

Other observations

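*mlt-10* and *mlt-8* lie 17.2 kb apart on chromosome II with 4 protein-coding genes between them. *C09E8.1* had 48.3, 43.2 and 75.8 CPM in *daf-16(0)* and 55.9, 52.5 and 43.7 CPM in control, and *lips-7* had 21.9, 18.0 and 14.7 CPM against 21.6, 22.1 and 11 CPM. Both overlapped between genotypes in the 6 libraries, with differences of 0.15 and −0.40 in the 4 libraries (edgeR adjusted p = 0.782 and 0.473). *W08F4.5* had at most 3.19 CPM, with a difference of −0.22 (adjusted p = 0.917), and *C09E8.6* had no counts. These genes were chosen for their position after the values of *mlt-10* were known.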
